A study of Mus musculus with 3 samples.

Results

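The laminin chains and integrin subunits of the mouse larynx were described, by class of cell, in 3 single-cell RNA sequencing libraries. Members were chosen by gene symbol alone, as laminin alpha, beta and gamma chains and integrin alpha and beta subunits, and 36 genes of the 33696 features counted are described: 10 laminin chains, 18 integrin alpha subunits and 8 integrin beta subunits. Each library held tdTomato-sorted cells from a pool of 10 larynges, 5 male and 5 female, of *Lrig1CreERT2/+; ROSA26 LSL-tdTomato/+* mice given tamoxifen on 2 consecutive days and collected 1 day after recombination. All libraries shared this genotype and treatment and belonged to a single condition, so the groups compared were groups of cells inside each library, and the library was the replicate (n = 3). The Cre in this model is driven from the *Lrig1* locus, the sorted cells are those in which recombination left tdTomato, and pooling removes the spread between animals.

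Of 60530 deposited barcodes, 44542 were kept as cells, 13222, 7201 and 24119 in libraries 1, 2 and 3. The deposited totals were 211727921, 147898790 and 413632222 UMIs, and the kept cells had medians of 10525, 14033 and 10355 UMIs. Pairs of libraries shared 46 to 165 barcodes before filtering and 21 to 101 after it. Cells were put into classes by fixed UMI gates that used none of the members, so a class name stands for its gate. Basal cells were epithelial cells with *Trp63*, abundant *Krt5*, *Krt14* and *Krt15* and little *Krt4* and *Krt13*, and suprabasal cells were epithelial cells in which the squamous keratins *Krt4* and *Krt13* outweighed the basal keratins. Stromal, muscle satellite, endothelial, mural and leukocyte cells each passed the gate of their own marker list and of no other list. The gates took 18996 basal cells, 286 suprabasal cells, 4038 stromal cells, 1701 satellite cells, 559 endothelial cells, 121 mural cells and 224 leukocytes, and left 18617 cells (41.8%) in no class. Mural cells of library 2 numbered 16, under the minimum of 20 cells for a sum, so their levels are given but they entered no test, and mural values in tests rest on libraries 1 and 3. Endothelial cells numbered 490, 29 and 40 in libraries 1, 2 and 3, with 4375518, 327990 and 351314 UMIs. Low endothelial values of libraries 2 and 3 therefore rest on few UMIs.

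Markers outside the gates were used to check the class names. Stromal cells held 12285 to 17385 CPM, UMIs per 1000000, of *Col1a1*, *Col1a2*, *Col3a1* and *Dcn*, against 313 to 579 in basal cells. Satellite, endothelial, mural and leukocyte marker sums were each highest in the class of that name in every library. The suprabasal check list (*Krtdap*, *Sbsn*, *Lypd3* and *Spink5*) was at 310 to 1679 CPM in suprabasal cells and 32.9 to 48.3 in basal cells. The basal check list (*Dsg3*, *Aqp3*, *Sfn* and *Col17a1*) went against its name, with 3024 to 3812 CPM in basal cells and 5850 to 9299 in suprabasal cells, so the basal class rests on its gate of *Trp63* and basal keratins. Basal cells also held 4247 to 7656 CPM of the airway secretory genes *Scgb1a1*, *Scgb3a2*, *Muc5b* and *Bpifa1*, and 249 to 419 of the leukocyte list, and the part of these transcripts in the results was not tested. At least 1 UMI of *Lrig1*, the gene that drives the Cre, was seen in 56.8% to 70.4% of basal cells, 31.5% to 54.8% of satellite cells, 25.4% to 35.1% of stromal cells and 1.40% to 4.88% of leukocytes. With cells thinned to 5000 UMIs these shares were 31.6% to 36.2%, 29.8% to 40.3%, 14.3% to 21.6% and 0.0% to 0.862%, so that basal and satellite cells overlapped at equal depth.

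Laminins are secreted trimers of an alpha, a beta and a gamma chain that polymerise into the sheet-like core of basement membranes, the thin matrices under epithelia and around muscle fibres and vessels. Integrins are membrane heterodimers of an alpha and a beta subunit that bind laminins, collagens, fibronectin and other ligands and couple them to the cytoskeleton. In stratified epithelium laminin with *Lama3* and *Lamb3* chains anchors basal cells by way of the integrin of *Itga6* and *Itgb4* in hemidesmosomes, whereas skeletal muscle is known for *Lama2* laminins and the receptor of *Itga7* and *Itgb1*.

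The 36 members were found in the GRCm39 annotation, on 14 chromosomes, and several lay side by side. *Itga2* and *Itga1* on chromosome 13 lay 20995 bases apart, and the leukocyte subunits *Itgam*, *Itgax* and *Itgad* on chromosome 7 were separated by gaps of 10914 and 3718 bases. Of the chains described in most detail, *Lamb3* lay at chr1:192890007-193027705 (plus strand), *Itga6* at chr2:71575960-71689757 (plus strand), *Itgb4* at chr11:115865333-115899239 (plus strand), *Lama2* at chr10:26856032-27495754 (minus strand), *Lama4* at chr10:38841141-38998403 (plus strand) and *Itga7* at chr10:128769621-128794169 (plus strand).

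Promoter sequence is shown for 2 members that were high in basal cells, *Lamb3* and *Itgb4*, and 2 that were high in stromal, satellite or mural cells, *Lama2* and *Itga7*. The bases run 5′ to 3′ on the gene's strand from 250 bases before the start of the annotation's canonical transcript and stop before the first annotated exon of the gene that they meet. The *Lamb3* and *Lama2* stretches lie inside the annotated bounds of their genes, which begin farther upstream. Coordinates are GRCm39: *Lamb3* chr1:192984051-192984278 (plus strand), *Itgb4* chr11:115865083-115865332 (plus strand), *Lama2* chr10:27492939-27493159 (minus strand) and *Itga7* chr10:128769371-128769620 (plus strand). Capitals mark the letters TGANTCA, the AP-1 motif, or GGAATG, the TEAD motif, searched on both strands.
Lamb3: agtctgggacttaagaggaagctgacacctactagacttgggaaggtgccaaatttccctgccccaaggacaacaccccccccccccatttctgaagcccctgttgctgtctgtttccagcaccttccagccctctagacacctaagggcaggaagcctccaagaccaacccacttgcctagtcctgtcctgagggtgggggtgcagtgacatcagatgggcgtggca
Itgb4: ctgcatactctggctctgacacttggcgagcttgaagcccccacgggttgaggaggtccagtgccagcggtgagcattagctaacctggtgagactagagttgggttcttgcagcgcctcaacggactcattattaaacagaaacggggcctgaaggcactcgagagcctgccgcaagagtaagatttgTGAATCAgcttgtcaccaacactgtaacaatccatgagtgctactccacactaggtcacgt
Lama2: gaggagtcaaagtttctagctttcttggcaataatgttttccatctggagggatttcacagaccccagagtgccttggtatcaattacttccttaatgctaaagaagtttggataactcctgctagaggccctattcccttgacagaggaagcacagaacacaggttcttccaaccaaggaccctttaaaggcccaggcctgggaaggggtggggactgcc
Itga7: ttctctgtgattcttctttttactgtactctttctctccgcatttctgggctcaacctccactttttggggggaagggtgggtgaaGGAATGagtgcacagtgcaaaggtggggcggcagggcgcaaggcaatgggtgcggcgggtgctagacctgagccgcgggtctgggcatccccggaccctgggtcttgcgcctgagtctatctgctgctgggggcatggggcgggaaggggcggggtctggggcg
In *Itgb4* the AP-1 letters TGAATCA stood 61 to 55 bases before the start, and in *Itga7* the TEAD letters GGAATG stood 164 to 159 bases before it. Over windows of 300 bases, from 250 before to 50 after the start, AP-1 letters were found in 3 of the 36 members (*Itgb4*, *Itgad* and *Itgax*) and in 7.14% of 21770 protein-coding promoters. TEAD letters were found in 3 members (*Itga10*, *Itga7* and *Itgb8*) and in 14.0% of promoters, and the Sp1 letters GGGCGG in 18 members and 42.5% of promoters. No motif overlapped another in the sequences printed, and a match is a description of the letters in the window.

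These levels (CPM) are UMIs summed over the cells of a class in a library, per 1000000 UMIs of that class and library. The libraries count the 3′ end of each molecule, so a level needs no division by transcript length. In all, 34 of the 36 members had a mean of at least 10 CPM in at least 1 class, all but *Lama1* and the leukocyte subunit *Itgad*. The number at or above 10 CPM was 16 in basal cells (5 laminins, 11 integrins), 13 in suprabasal cells (5 and 8), 17 in stromal cells (6 and 11), 14 in satellite cells (5 and 9), 17 in endothelial cells (6 and 11), 20 in mural cells (7 and 13) and 16 in leukocytes (1 and 15). The single laminin chain that reached this level in leukocytes was *Lamc1*. In mural sums of libraries 1, 2 and 3, 3 UMIs were 5.68, 14.9 and 8.36 CPM, against 0.054, 0.057 and 0.0193 in basal sums. The mural count therefore turned on a few UMIs, and these counts are not at equal depth across classes.

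The alpha chains, which carry the receptor-binding end of a laminin, divided the classes. *Lama3*, the alpha chain of epithelial anchoring laminin, was at 92.2, 88.1 and 94.4 CPM in basal cells of libraries 1, 2 and 3, at 86.4, 92.5 and 60.9 in suprabasal cells, and at 139.9, 195 and 93.9 in endothelial cells. Basal libraries overlapped both of the other classes, suprabasal and endothelial libraries did not overlap each other, and stromal cells held 3.69, 1.82 and 8.17 and satellite cells 9.22, 9.12 and 17.8. *Lama5*, an alpha chain of most mature epithelial and vascular basement membranes, was at 90.0, 90.1 and 71.7 in basal cells, 29.3, 33.6 and 16.5 in suprabasal cells, 46.4, 88.4 and 25.6 in endothelial cells and 43.6, 79.3 and 109 in mural cells. Basal, endothelial and mural ranges of *Lama5* overlapped, and stromal cells (3.02, 3.18 and 3.28) lay below all of them. *Lama2*, the muscle and mesenchymal alpha chain, was the most abundant member in stromal cells at 1498, 1519 and 1392, followed by satellite cells at 916, 877 and 1173 and mural cells at 532, 387 and 47.4. Stromal and satellite ranges did not overlap, and the mural libraries were spread widely, with library 3 lowest. In basal cells *Lama2* was at 2.45, 0.722 and 11.5, with library 3 above the others. *Lama4*, an alpha chain of vessel walls, was at 607, 302 and 547 in endothelial cells, 410.5, 426 and 578 in stromal cells and 279, 218 and 78 in mural cells. Endothelial and stromal cells overlapped, and satellite cells held 11.2, 2.64 and 9.03 and basal cells 2.86, 1.81 and 4.95. *Lama1*, an embryonic and glandular alpha chain, was at 2.68, 4.73 and 2.41 in basal cells and at 2.82 or less in every library of the other classes.

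Among the beta chains, *Lamb3*, the partner of *Lama3* in anchoring laminin, was at 177, 156 and 146 in basal cells and 66.8, 39.2 and 40.1 in suprabasal cells, and at 9.04 or less in every library of the other classes. Basal cells were above suprabasal cells in every library with no overlap. *Lamb1*, the beta chain of most mesenchymal laminins, was at 164, 215 and 222 in stromal cells and 102, 42.7 and 117 in endothelial cells, against 1.21, 0.247 and 1.72 in basal cells. Mural cells held 73.9, 9.92 and 0, from 73.9 in library 1 to no UMI in library 3. *Lamb2*, the alternative to *Lamb1* in muscle and vessels, was the beta chain detected in most classes, at 152, 179 and 242 in mural cells, 91, 137 and 65.5 in endothelial cells, 69.1, 63.2 and 60.5 in stromal cells, 38, 38.7 and 35.8 in basal cells, 36.9, 34.6 and 35.6 in satellite cells and 24.2, 31.8 and 16.2 in suprabasal cells. Mural cells were above endothelial cells without overlap, endothelial cells overlapped none but stromal cells, and basal and satellite cells overlapped each other.

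*Lamc1*, the gamma chain of most laminins, was the most even of the laminin genes, with ranges of 104 to 207 in mural cells, 137 to 223 in satellite cells, 163 to 195 in stromal cells and 109.8 to 165 in endothelial cells, all of which overlapped. Basal cells were lower at 71.1, 62.2 and 65.4, and suprabasal cells lower again at 42.6, 33.6 and 31.3. *Lamc3*, a gamma chain found in few tissues, was at 98, 149.6 and 116 in stromal cells, 14.5, 37 and 14.5 in satellite cells and 9.47, 49.6 and 13.9 in mural cells, against 0.144, 0.152 and 0.695 in basal cells. Thus the epithelial classes held *Lama3*, *Lama5*, *Lamb3*, *Lamb2* and *Lamc1* above 10 CPM, and the stromal class held *Lama2*, *Lama4*, *Lamb1*, *Lamb2*, *Lamc1* and *Lamc3*.

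**Figure D1:**
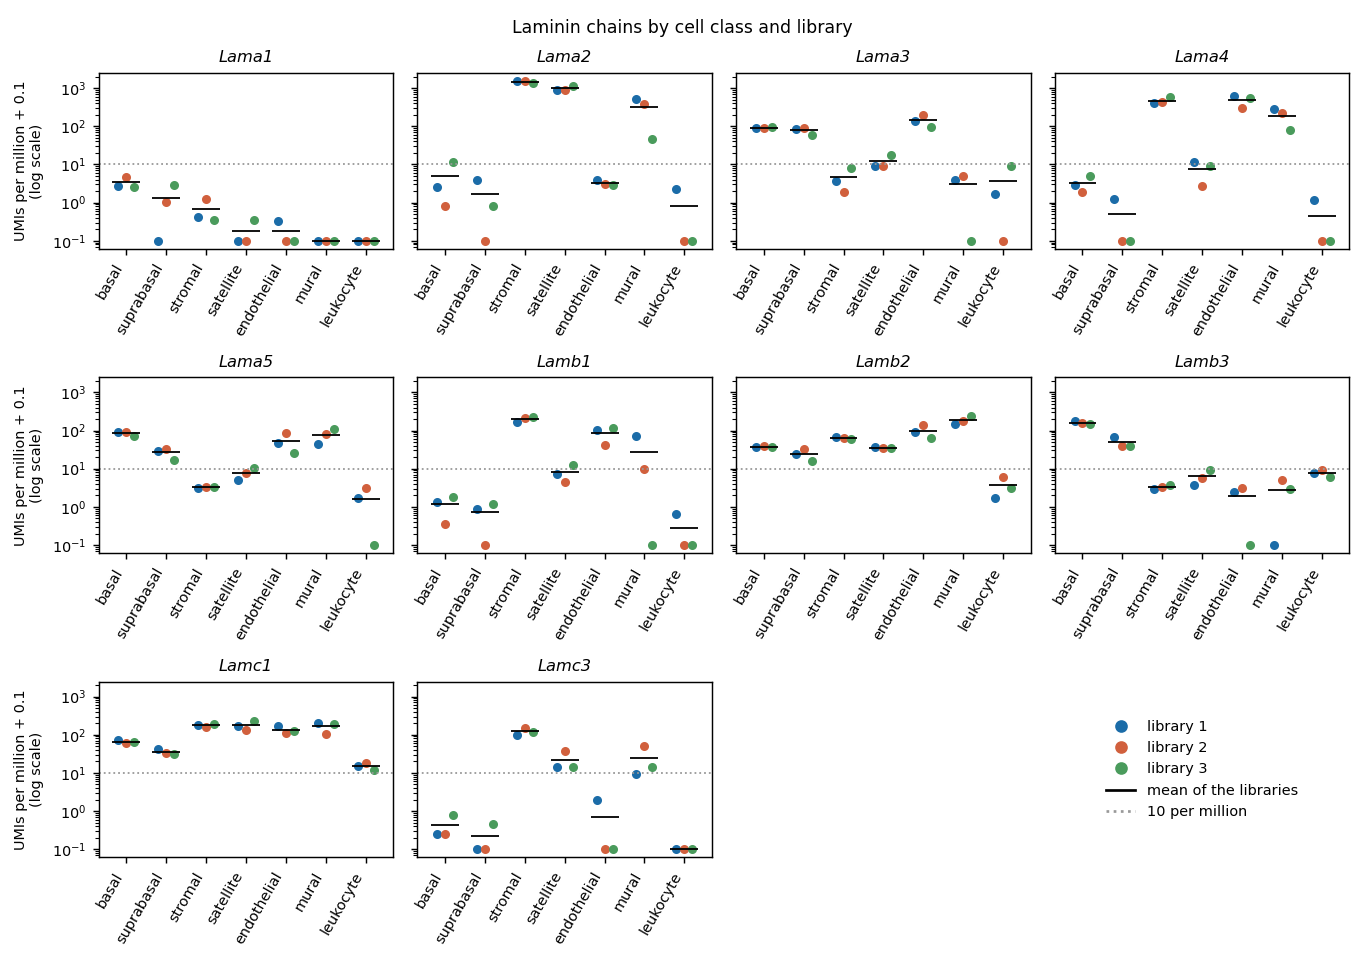
Level of each of 10 laminin chains in 7 classes of laryngeal cells, as CPM plus 0.1 on a log axis; each dot is a library, the black bar is the mean of the libraries and the dotted line marks 10 CPM. *Lama3* and *Lamb3* sit above the line in basal and suprabasal cells, *Lama2* reaches 1392 to 1519 in stromal cells, and *Lama1* is below the line in every class.

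The laminin receptors followed the alpha chains in part. *Itga6*, the alpha subunit of the hemidesmosomal and of a general laminin receptor, was at 521, 454 and 333 in suprabasal cells, 425, 229 and 524 in endothelial cells and 345, 354 and 367 in basal cells, ranges that overlapped. Leukocytes held 50.6, 87.4 and 147, and stromal, satellite and mural cells 15.2 or less. *Itgb4*, which pairs with *Itga6* alone and links it to keratin filaments, was at 303, 312 and 308 in basal cells, 187, 164 and 96.4 in suprabasal cells and 82.5, 146 and 157 in endothelial cells. Basal cells were above both of the others in every library, and suprabasal and endothelial ranges overlapped. *Itga3*, which forms a laminin receptor with *Itgb1*, was at 119.7, 124 and 101 in basal cells, 34.3, 76.2 and 51.2 in endothelial cells and 57.8, 31.8 and 20.8 in suprabasal cells, and at 2.27 to 2.57 in stromal cells. *Itga7*, the muscle laminin receptor subunit, was at 165, 79.3 and 123 in mural cells and 32.1, 19.2 and 57 in satellite cells, which did not overlap, and at 0.509 or less in basal cells. *Itgb1*, the common beta subunit, was detected at 234 CPM or more in every library of every class, and mural cells (1189.8, 917 and 1459.6) were above all others, with basal cells at 487, 445 and 451 and satellite cells at 363, 273 and 436.

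Of the collagen receptors, *Itga1* was at 652, 253 and 496 in mural cells, 404, 308 and 225 in endothelial cells and 171, 196 and 139.6 in stromal cells, against 48.5, 39.6 and 26.3 in basal cells and 1.56, 0.934 and 1.76 in suprabasal cells. Mural and endothelial ranges overlapped, and suprabasal cells lay below every other class. *Itga2*, the collagen receptor of epithelium and platelets, was highest in basal cells at 33.5, 25.9 and 18, ahead of endothelial cells at 12.3, 15.2 and 8.54 without overlap. *Itga11*, a fibroblast collagen receptor, was at 18.1, 17.3 and 14.4 in stromal cells and at 2.24 or less elsewhere, and *Itga10*, known from cartilage, reached 10 CPM in mural cells alone at 17.1, 4.96 and 36.2.

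Among the subunits that bind RGD peptides in fibronectin, vitronectin and latent TGF-beta, *Itgav* was the most even, with means from 54.5 ± 6.9 (SD, n = 3) in satellite cells to 159.7 ± 37.6 in leukocytes, and 103 ± 5.82 in basal cells. Its beta partners divided the classes. *Itgb6*, an epithelial subunit, was at 36, 29.7 and 39.2 in basal cells and 41.4, 27.1 and 22.5 in suprabasal cells, which overlapped, and at 3 or less in every other library. *Itgb8*, which binds latent TGF-beta, was at 42.3, 35.2 and 33 in stromal cells and 31.4, 15.4 and 15.2 in basal cells but held 3 UMIs in all suprabasal cells. *Itgb3* was highest in endothelial cells at 54.9, 109.8 and 25.6, and *Itgb5* by mean in leukocytes at 158, 292 and 450.1. *Itga5*, the fibronectin receptor subunit, was at 60.6, 64 and 117 in endothelial cells and 28.3, 39.1 and 25.9 in stromal cells, against 3.17, 2.72 and 2.7 in basal cells. *Itga8*, known from smooth muscle and mesenchyme, was at 133, 843 and 348 in mural cells, where library 2 was highest on 16 cells, and at 92.9, 76.6 and 62.7 in stromal cells and 33.3, 26.4 and 71 in satellite cells. *Itga2b*, the platelet subunit, was at 7.43, 7.96 and 15.3 in stromal cells and 6.64, 14 and 4.58 in suprabasal cells.

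*Itga9*, a receptor for tenascin and other ligands, was at 139, 226 and 196 in endothelial cells, 81, 118 and 219 in leukocytes, 33, 33.9 and 41 in stromal cells and 20.1, 14.8 and 22.8 in basal cells, and suprabasal cells held 1 UMI. *Itga4*, which pairs with *Itgb1* or *Itgb7* on leukocytes, was at 311, 232 and 336 in leukocytes and 75.8, 29.8 and 64.1 in mural cells, with no UMI in satellite cells. The leukocyte subunits were highest in leukocytes, where *Itgam* was at 392, 217 and 186, *Itgb2* at 242, 166 and 144, *Itgb7* at 103, 15.1 and 90.0, *Itgax* at 109.8, 54.3 and 72, *Itgal* at 38.9, 39.2 and 69 and *Itgae* at 25.6, 30.1 and 33. *Itgad* reached 3 CPM in library 3 and had no leukocyte UMI in libraries 1 and 2. *Itgam*, the alpha subunit of a phagocyte receptor, was also counted in suprabasal cells, at 5.47, 15.9 and 10.9 from 62 UMIs, while its partner *Itgb2* had 0 UMIs there, which allows up to 0.464 CPM over the group. The leukocyte check list in suprabasal cells was 46.5 to 98.1 CPM, below the 249 to 419 in basal cells, where *Itgam* was at 0.108, 0.076 and 0.187. The source of the suprabasal *Itgam* UMIs was not tested.

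**Figure D2:**
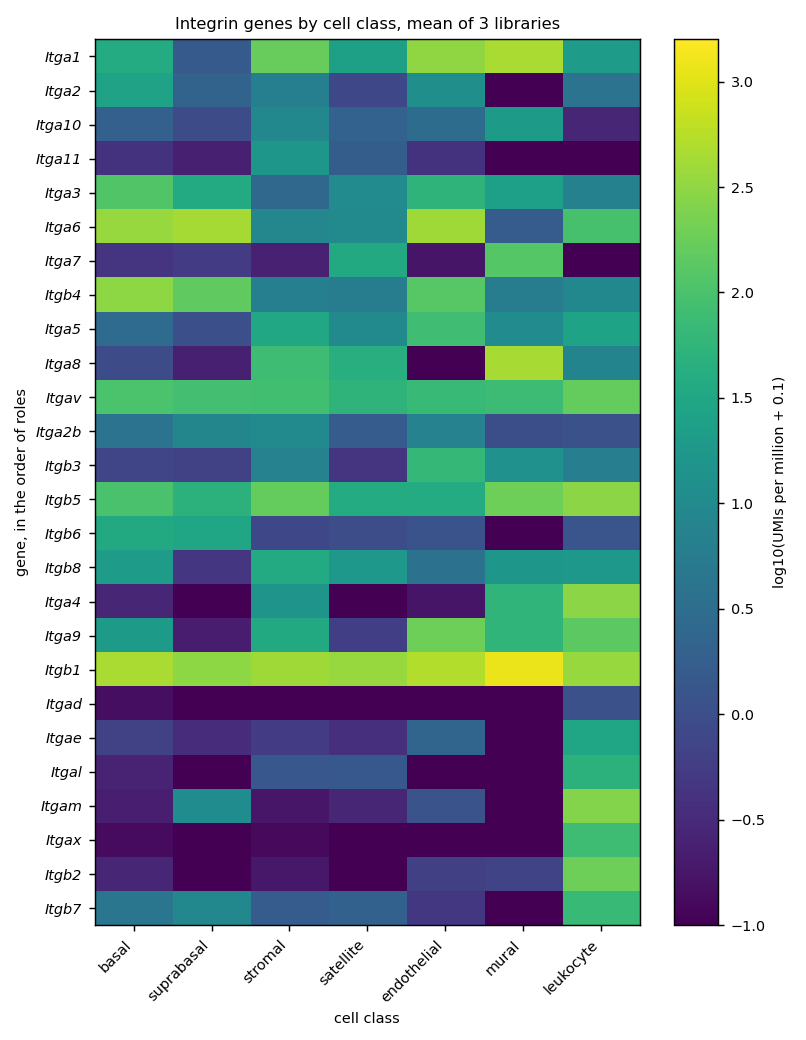
Mean level of the 26 integrin subunits (rows, by role) in 7 classes of laryngeal cells (columns); colour is the log10 of CPM plus 0.1, averaged over 3 libraries. *Itgb1* and *Itgav* are coloured in every class, *Itga6* and *Itgb4* in basal, suprabasal and endothelial cells, *Itga7* in mural and satellite cells, and *Itgam*, *Itgb2* and *Itgax* in leukocytes.

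Chains were then matched into assemblies. An assembly was counted as complete in a class where the mean of every chain was at least 10 CPM and each library reached it too. In library 2, 3 UMIs were 14.9 CPM in mural, 9.15 in endothelial and 9.04 in leukocyte sums, against 0.057 in basal cells. Completeness in the small sums therefore turned on a few UMIs, and counts of assemblies are not at equal depth across classes. None of the 13 laminin trimers looked for held *Lamb3*, so the counts of trimers do not cover this chain. Of these 13, 2 were complete in basal and in suprabasal cells, those of *Lama3* or *Lama5* with *Lamb2* and *Lamc1*. The scarcest chain of both was *Lamb2*, at 37.5 ± 1.5 CPM (SD, n = 3) in basal cells and 24.1 ± 7.78 in suprabasal cells. Stromal cells held 6 complete trimers, made of *Lama2* or *Lama4* with *Lamb1* or *Lamb2* and with *Lamc1* or *Lamc3*, and no chain set with *Lama3* or *Lama5*. Satellite cells held 1, of *Lama2*, *Lamb2* and *Lamc1*, limited by *Lamb2* at 35.7 ± 1.16. Endothelial cells also held 6, each of *Lama3*, *Lama4* and *Lama5* with *Lamb1* or *Lamb2* and *Lamc1*, whereas mural cells held 3, each of *Lama2*, *Lama4* and *Lama5* with *Lamb2* and *Lamc1*. No trimer was complete in leukocytes. Sums over a class do not show that the chains were in the same cell.

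Of 24 integrin pairs, 10 were complete in basal cells, 6 in suprabasal cells, 9 in stromal cells, 6 in satellite cells, 9 in endothelial cells, 6 in mural cells and 12 in leukocytes. The laminin-binding pairs were *Itga3* with *Itgb1*, *Itga6* with *Itgb1* and *Itga6* with *Itgb4* in basal, suprabasal and endothelial cells, *Itga7* with *Itgb1* in satellite and mural cells, and *Itga6* with *Itgb1* in leukocytes. Stromal cells had no complete pair of *Itga3*, *Itga6* or *Itga7*, although they and endothelial cells held the most complete trimers of those looked for. Laminin receptors outside the integrins were not part of these pairs. Of those, *Dag1* was at 128, 109 and 147 CPM and *Bcam* at 8.65, 6.82 and 14.9 in stromal libraries 1, 2 and 3. The stromal pairs were those of *Itga1*, *Itga4*, *Itga5*, *Itga8*, *Itga9*, *Itga11* and *Itgav*. *Itgav* with *Itgb6* was complete in basal and suprabasal cells alone, and *Itgav* with *Itgb3* in endothelial cells alone. The pairs complete in basal and not in suprabasal cells were *Itga1*, *Itga2* and *Itga9* with *Itgb1*, and *Itgav* with *Itgb8*. In the *Tmprss11a*+ subset of basal cells, defined below, *Itga9* and *Itgb8* were each under 10 CPM in every library. The pairs of *Itga9* and *Itgb8* were therefore not complete in that subset. In the basal subset with the airway marker, also defined below, *Itga9* and *Itgb8* were each above 10 CPM in every library.

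**Figure D3:**
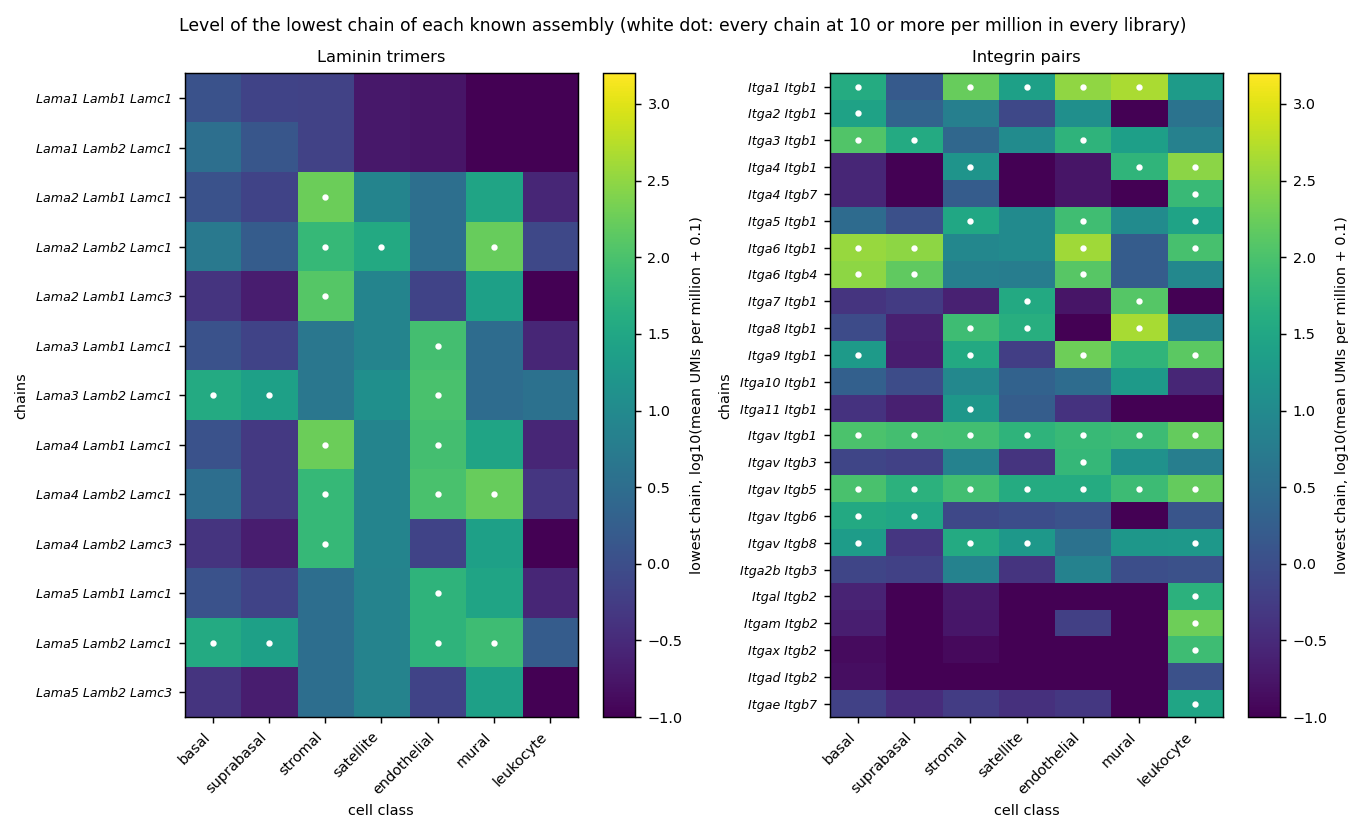
Mean level of the scarcest chain of each laminin trimer and integrin pair (rows) in 7 classes of laryngeal cells (columns), as log10 of CPM plus 0.1; a white dot marks assemblies in which every chain reached 10 CPM in every library. Dots for *Itga6* with *Itgb4* lie in basal, suprabasal and endothelial cells, and leukocytes have no dot among the trimers.

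In single cells, at least 1 UMI each of *Itga6* and *Itgb4* was found in 86.7%, 92.5% and 80.7% of basal cells of libraries 1, 2 and 3 (mean 86.6% ± 5.93, SD, n = 3), 83.3%, 75.6% and 65.3% of suprabasal cells (mean 74.7% ± 9.05) and 28.2%, 48.3% and 42.5% of endothelial cells (mean 39.6% ± 10.4). Counted on all UMIs, endothelial cells lay below the epithelial classes, at median depths of 4946 to 7278.5 UMIs against 11780 to 18340 in basal cells and 20228 to 24998 in suprabasal cells. The mean share was 2.71% in leukocytes, 0.781% in stromal cells and 0.553% in satellite cells, and no mural cell of 121 held the pair, which allows a share of up to 2.48%, a limit that covers counting error only. Thinned to 5000 UMIs per cell, the pair was left in 56.0%, 58.9% and 58.1% of basal cells, 50.4%, 45.2% and 29.3% of suprabasal cells and 20.2%, 39.1% and 40.0% of endothelial cells (mean 33.1%). At this equal depth basal cells were above suprabasal and endothelial cells in every library, and endothelial cells were below suprabasal cells in libraries 1 and 2 and above them in library 3, on 20 endothelial cells. The 95% intervals for counting error of basal and suprabasal cells overlapped in libraries 1 and 2. Those of endothelial cells overlapped the basal and the suprabasal intervals in libraries 2 and 3.

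**Figure D4:**
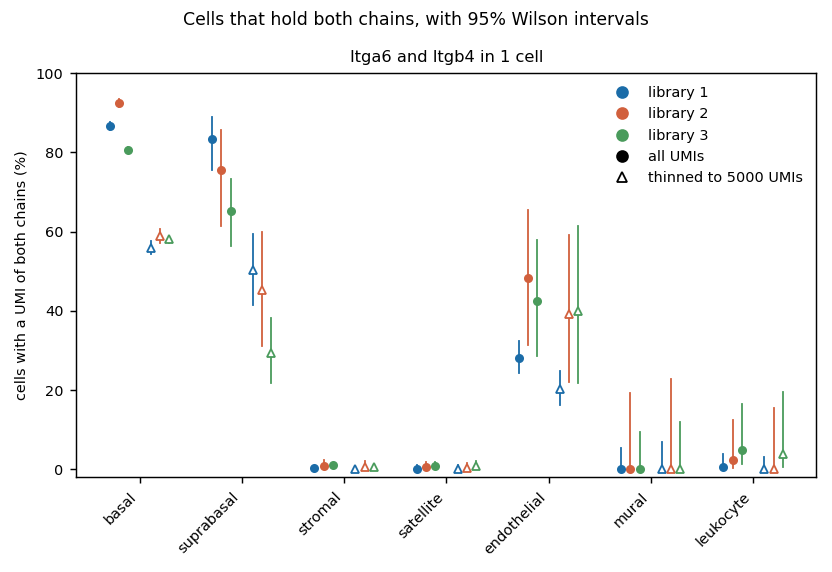
Percent of cells (vertical axis) with at least 1 UMI each of *Itga6* and *Itgb4*, by class and library; circles use all UMIs, triangles use cells thinned to 5000 UMIs, and bars are 95% Wilson intervals for counting error. Basal and suprabasal circles lie between 65.3% and 92.5%, and triangles lie lower.

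The first comparison set cells of the basal gate against cells of the suprabasal gate. Of the 34 members tested, 10 were higher and 1 was lower in basal than in suprabasal cells, by edgeR's quasi-likelihood test on library sums with adjusted p-values by the Benjamini-Hochberg method. Of all 15553 genes in the test, 16.1% were higher and 13.6% lower in basal cells. The median log2 fold change was 0.97 over the members and 0.15 over all genes. By kind, 3 of 9 laminins and 7 of 25 integrins were higher.

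Of the laminins, *Lamb3* was higher in basal cells (log2 fold change 1.51, SE 0.24, edgeR adjusted p 0.000101), from 48.7 ± 15.7 CPM in suprabasal to 159.6 ± 16 in basal cells. *Lama5* (log2 fold change 1.53, SE 0.33, edgeR adjusted p 0.00159) and *Lamc1* (log2 fold change 0.69, SE 0.19, edgeR adjusted p 0.00913) were higher too. *Lama3* was not called, at a log2 fold change of 0.03 (SE 0.34, adjusted p 0.966), and its basal and suprabasal libraries overlapped. *Lamb2* was at 0.51 (adjusted p 0.132).

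Of the integrins, the collagen receptor subunits *Itga1* (log2 fold change 4.44, SE 0.45, edgeR adjusted p 1.02e-06) and *Itga2* (log2 fold change 3.39, SE 0.45, edgeR adjusted p 2.6e-05) had the largest fitted rises among members with more than 3 suprabasal UMIs. *Itga9* was represented by 1 suprabasal UMI, and its pooled ratio was 133-fold with a 95% counting interval of 23.9 to 5269. *Itgb8*, with 3 suprabasal UMIs, had a pooled ratio of 40.2-fold with a 95% counting interval of 13.7 to 195. Both passed the test, with edgeR adjusted p of 4.26e-06 and 4.38e-06, and no library overlapped. The laminin receptor subunits *Itga3* (log2 fold change 1.45, SE 0.35, edgeR adjusted p 0.00441) and *Itgb4* (log2 fold change 0.87, SE 0.29, edgeR adjusted p 0.03) were higher in basal cells, whereas their partners *Itga6* at -0.47 (SE 0.31, adjusted p 0.267) and *Itgb1* at 0.39 (adjusted p 0.187) were not called. *Itgb5* at 0.81 (adjusted p 0.0555) was not called either, but was called higher with the library as a block (0.82, edgeR adjusted p 0.0445), RLE size factors, no low count filter, no doublet removal or only the 2 classes fitted. Nor were *Itgb6* at 0.01 (adjusted p 0.995) and *Itgav* at 0.04 (adjusted p 0.89). *Itga5* passed at under 10 CPM and was lost with the block, where *Lama4* and *Itga2b*, also under 10 CPM, were called. *Itgam* was the single member lower in basal cells (log2 fold change -6.30, SE 0.53, edgeR adjusted p 1.9e-07).

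Calls numbered 9 whichever library was left out. *Itga5* was lost in each case. *Lamc1* was lost as well without library 1, *Itga3* and *Itgb4* without library 2, and *Lamc1* and *Itgb4* without library 3, while *Itgb7* was gained without library 2 and *Itga2b* without library 3, both under 10 CPM. Suprabasal cells were gated on squamous keratins while basal cells included cells with *Nkx2-1*, so the comparison was repeated with *Tmprss11a*+ basal cells alone. It then called 9 members higher (11.9% of all genes) and 1 lower (11.5%), with *Itgb8* at 2.99, *Itga9* at 5.11, *Lamb3* at 1.35 and *Itgb4* at 1.02 on the log2 scale. Of 36 partner genes of basement membranes and adhesion, 17 were higher and 2 lower in basal cells, and 11 were higher with *Tmprss11a*+ basal cells in place of all basal cells. Among those with at least 10 CPM in the higher group, the limit for each partner named from here on, the largest rises were *Fermt2*, an integrin activator, at 4.90, *Egfl6*, a matrix ligand of *Itga8* integrin, at 4.51 and *Frem2*, a basement membrane protein, at 2.70. These rest on few suprabasal UMIs in libraries 1, 2 and 3, with 3, 0 and 1 for *Fermt2*, 2, 1 and 6 for *Egfl6* and 19, 3 and 2 for *Frem2*. The falls were *Fermt3*, the hematopoietic kindlin, at -3.56 and *Vcl*, vinculin, at -0.84, which lost its call without library 1 or 3 and with no low count filter. None of the 4 hemidesmosome genes was called, and *Col17a1* was at 249.8, 233 and 274 in basal and 310.3, 179 and 162 in suprabasal cells.

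**Figure D5:**
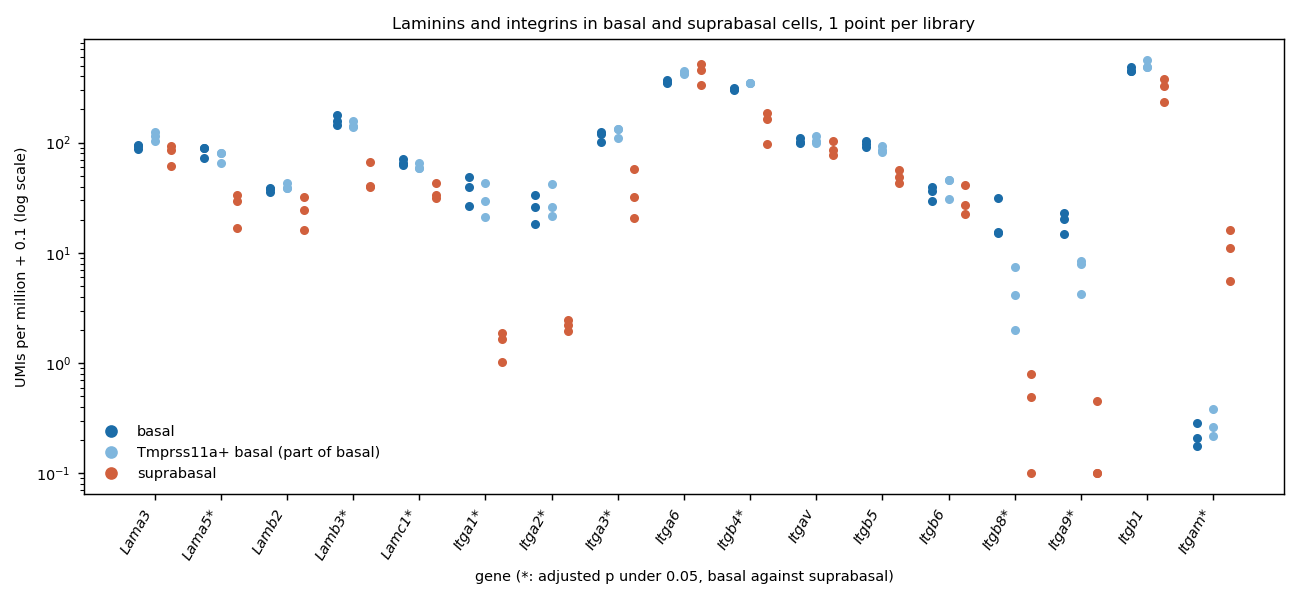
CPM of laminin chains and integrin subunits in basal cells, *Tmprss11a*+ basal cells (part of the basal cells) and suprabasal cells, a dot per library; an asterisk marks an edgeR adjusted p under 0.05 for basal against suprabasal cells. *Lamb3*, *Itga1* and *Itgb4* dots of basal cells lie above those of suprabasal cells, and those of *Lama3* and *Itga6* overlap.

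Basal and stromal cells lie on opposite sides of the epithelial basement membrane. By the same edgeR test, all 9 laminins tested differed, 3 higher in basal cells and 6 lower, and of 25 integrins 6 were higher and 12 lower. Together 9 of 34 members were higher, against 24.4% of all genes, and 18 were lower, against 26.5% of all genes. The median log2 fold change was -0.74 over the members and 0.03 over all genes. No called member overlapped between the classes, but overlap was not counted over all genes, so this does not set the members apart.

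The chains higher in basal cells were *Lamb3* (log2 fold change 5.65, SE 0.29, edgeR adjusted p 2.2e-11), *Lama5* at 4.75 (adjusted p 1.9e-09) and *Lama3* at 4.22 (adjusted p 2.01e-08). Their receptors moved the same way, with *Itgb4* at 5.61 (adjusted p 1.82e-10), *Itga3* at 5.58 (adjusted p 1.74e-09) and *Itga6* at 5.35 (adjusted p 5.73e-10). *Itgb6* at 5.34 (adjusted p 2.41e-08) and *Itga2* at 1.99 (adjusted p 4.37e-05) completed the group above 10 CPM.

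Lower in basal cells were *Lamc3* at -8.28 (adjusted p 9.51e-10), *Lama2* at -8.23 (SE 0.88, adjusted p 1.81e-07), *Lamb1* at -7.49 (adjusted p 4.52e-09) and *Lama4* at -7.18 (adjusted p 1.03e-09). The chains detected on both sides differed less, *Lamc1* by -1.41 (adjusted p 1.48e-06) and *Lamb2* by -0.77 (adjusted p 0.00736). Of the integrins, *Itga8* was at -6.51, *Itga4* at -6.05, *Itga11* at -5.60, *Itga5* at -3.41, *Itga1* at -2.12 and *Itga2b* at -1.39. Smaller differences passed for *Itga9* at -0.90 (adjusted p 0.0125), *Itgb8* at -0.82 (adjusted p 0.0228) and *Itgb5* at -0.72 (adjusted p 0.0472). *Itgb1* at 0.22 (adjusted p 0.414) and *Itgav* at 0.32 (adjusted p 0.117) were not called, although *Itgav* was with only the 2 classes fitted.

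Of the partners, 13 were higher and 16 lower in basal cells, and all 4 hemidesmosome genes were higher, of which *Cd151* was not called without library 1. The largest rises were *Frem2* at 6.01, *Fermt1*, the epithelial kindlin, at 5.97 and *Bcam*, a receptor for *Lama5* laminins, at 5.60. The largest falls were *Col15a1* at -8.13, *Nid1*, which links laminin to collagen IV, at -8.01 and the collagen IV chain *Col4a1* at -6.32. *Itgb8* and *Itgb5* lost their calls without library 2 and again without library 3, *Itga9* without library 2 and *Lamb2* without library 1, as did *Itgb7*, under 10 CPM, without library 1 or 3. *Itgb8* was not called by DESeq2 or with only the 2 classes fitted, and DESeq2 gave *Lama2* no adjusted p in any comparison of the classes.

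Basal cells were also divided by a marker gene each of squamous and airway epithelium, as 7353 cells with *Tmprss11a*, a protease of squamous epithelium, and no *Nkx2-1* UMI, and 4672 cells with *Nkx2-1*, a factor of airway epithelium, and no *Tmprss11a* UMI. Each name rests on 1 marker, and 5131 basal cells had UMIs of both and 1840 of neither. By edgeR, 5 of 27 members tested were higher in *Tmprss11a*+ basal cells, against 6.16% of all genes, and 3 were lower, against 6.34%. The median log2 fold change was -0.11 over the members and 0.01 over all genes.

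*Lama3* was at 124, 103 and 115 in *Tmprss11a*+ and 68.4, 61.5 and 74.7 in *Nkx2-1*+ basal cells (log2 fold change 0.73, SE 0.10, edgeR adjusted p 0.00352). *Itga6* was at 443, 429.7 and 417 against 264, 227 and 313 (log2 fold change 0.67, SE 0.12, edgeR adjusted p 0.0102), and *Itgb4* at 350.4, 348 and 344 against 264, 253 and 274 (log2 fold change 0.38, SE 0.08, edgeR adjusted p 0.0211). All 3 were higher in *Tmprss11a*+ cells in every library, without overlap. *Itgb8* was lower there, at 7.37, 1.89 and 4.09 against 46.8, 37.2 and 26.9 (log2 fold change -3.12, SE 0.44, edgeR adjusted p 0.00463), as were *Itga9* at 8.26, 4.16 and 7.84 against 23.7, 25.6 and 34.9 (log2 fold change -2.08, SE 0.25, edgeR adjusted p 0.00258) and *Itgb5* at 92.6, 81.5 and 85 against 111, 107 and 109 (log2 fold change -0.35, SE 0.08, edgeR adjusted p 0.0305). *Lama1* and *Itga2b* passed at under 10 CPM. *Lamb3* at -0.19 (adjusted p 0.378) was not called without the block and was called lower with it (-0.18, edgeR adjusted p 0.0336).

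Library 1 moved these calls most: 1 member was called without it, *Itgb8*, against 4 without library 2, where *Itga6*, *Itgb4*, *Itgb5* and *Itga2b* were lost, and 8 without library 3, where *Itga2b* gave way to *Lama4*, both under 10 CPM. With the library as a block, 10 members were higher (16.4% of all genes) and 7 lower (15.5%), the gains being *Itga2*, *Itga3*, *Itgb1*, *Itgb6* and *Lamb2* higher and *Itga1*, *Lama5*, *Lamb3* and *Lamc1* lower. Of 35 partners tested, 3 were higher and 6 lower without the block, and 11 and 10 with it. No partner was called without library 1, while 1 was higher and 3 lower without library 2, and 2 and 7 without library 3. *Col17a1*, a hemidesmosome collagen, was at 1.03, *Hspg2*, perlecan, at 0.49 and *Plec*, plectin, at 0.36, whereas the collagen IV chains *Col4a3* and *Col4a4* and the matrix protein *Egfl6* were at -2.66, -2.34 and -2.05. Each of these 6 lost its call without library 1, *Hspg2* also without library 2 or 3, and *Plec*, *Col4a3* and *Col4a4* also without library 2. *Plec* was not called either with RLE size factors, no low count filter, no doublet removal or stricter gates. Median depths were 11405 to 18324 UMIs in *Tmprss11a*+ and 13209 to 18549.5 in *Nkx2-1*+ basal cells.

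Satellite cells, the stem cells of skeletal muscle, lie inside the basement membrane of the muscle fibre, and stromal cells outside it. By edgeR, 5 of 34 members were higher in satellite cells, against 14.3% of all genes, and 16 were lower, against 21.7%. The median log2 fold change was -0.90 over the members and -0.03 over all genes. *Itga7* stood out, at 32.1, 19.2 and 57 in satellite cells against 0.135, 0.227 and 0.0643 in stromal cells, from 5 stromal UMIs (log2 fold change 8.08, SE 0.56, edgeR adjusted p 9.61e-09). *Itga3* (log2 fold change 2.09, SE 0.43, edgeR adjusted p 0.00079) and *Lama3* (log2 fold change 1.23, SE 0.40, edgeR adjusted p 0.02) were higher at low level, and *Lama5* and *Lamb3* passed at under 10 CPM. *Lama3* and *Lama5* lost their calls without library 1 or 2, and *Lamb3* without library 2 or 3. With only the 2 classes fitted *Lama3* and *Lamb3* were not called, whereas *Lama2* and *Itga8* were.

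*Lama2* did not pass, at -0.62 (SE 0.65, adjusted p 0.5), although stromal libraries were all above satellite libraries, and neither did *Lamc1* at -0.06, *Itgb1* at -0.21 or *Itga8* at -0.90 (adjusted p 0.0972). *Itga8* was called lower with the library as a block (-1.02, edgeR adjusted p 0.0237), with no low count filter, without library 3 and with only the 2 classes fitted, and the last of these also called *Lama2*. The remaining chains of the stromal set were lower in satellite cells, with *Lama4* at -6.02, *Lamb1* at -4.72, *Lamc3* at -2.47 and *Lamb2* at -0.89, the last of which was not called without library 1. Integrins lower in satellite cells were *Itga9* at -6.15, *Itga11* at -3.37, *Itga1* at -2.84, *Itga2b* at -2.77, *Itgb5* at -2.10, *Itga5* at -1.67, *Itgb8* at -1.13 and *Itgav* at -0.66, and *Itgav* lost its call without library 1. *Itga4* had no UMI in satellite cells and was at least 53.9-fold lower. Of 36 partners, 4 were higher, among them *Tln2*, the muscle talin, at 2.81, *Dag1*, dystroglycan, the laminin receptor of muscle, at 2.12 and *Ntn4*, a netrin that binds laminin, at 1.79, not called without library 2. Another 11 were lower, led by *Col4a6* at -5.40, *Egfl6* at -5.19 and *Nid1* at -5.16. Satellite cells carried 853 to 3070 CPM of the stromal check genes. The endothelial check list was at 164 to 194 CPM in satellite cells, against 14.0 to 44.8 in stromal cells. The part of these transcripts in the satellite levels was not tested.

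Endothelial and mural cells share the basement membrane of the vessel wall. By edgeR, 8 of 34 members were higher in endothelial cells, against 12.0% of all genes, and 8 were lower, against 11.0%. The median log2 fold change was 0.63 over the members and 0.04 over all genes. Endothelial cells had more *Lama4* (log2 fold change 1.45, SE 0.50, edgeR adjusted p 0.0427) and *Lama3*, which had 2 mural UMIs and a pooled ratio of 62.2-fold with a 95% counting interval of 17.2 to 515. They had less *Lama2* (log2 fold change -6.25, SE 1.09, edgeR adjusted p 0.000265) and *Lamb2* (log2 fold change -1.04, SE 0.29, edgeR adjusted p 0.0114). *Lama5* at -0.54, *Lamb1* at 1.16 and *Lamc1* at -0.53 were not called, although *Lamc1* was called lower with RLE size factors and *Lamc3* lower with DESeq2.

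The laminin receptors divided between the 2 layers. *Itga6* had 2 mural UMIs and a pooled ratio of 186-fold with a 95% counting interval of 51.4 to 1535 in favour of endothelial cells, and *Itgb4* was higher there too (log2 fold change 4.18, SE 0.61, edgeR adjusted p 4.21e-05). *Itga7* went the other way, with 1 endothelial UMI and a pooled ratio of 747-fold with a 95% counting interval of 132 to 29715 in favour of mural cells, together with *Itgb1* (log2 fold change -1.36, SE 0.24, edgeR adjusted p 0.000284). *Itga5* at 3.76, *Itgb3* at 3.77 and *Itga9* at 3.81 were higher in endothelial cells, and *Itga2*, with no mural UMI in the libraries tested, was at least 3.63-fold higher. *Itga8* had no endothelial UMI and was at least 371-fold lower. *Itga4*, with 1 endothelial UMI, had a pooled ratio of 359-fold with a 95% counting interval of 62.1 to 14406 in favour of mural cells, and *Itga10* at -3.11 and *Itgb5* at -1.77 were lower in endothelial cells. *Itga1* at -0.85 (adjusted p 0.0521) and *Itga3* at 1.78 (adjusted p 0.065) were not called. *Itga1* was called lower with the library as a block (-0.96, edgeR adjusted p 0.00447), RLE size factors, DESeq2, no doublet removal or stricter gates, and *Itga3* higher with DESeq2, no low count filter or library 3 left out.

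Calls numbered 11 without library 1 and 14 without library 3, where the lone mural sum left was assumed to vary like the other groups. *Lamb2*, *Lama4* and *Itga2* were lost in both cases, and *Lama2* and *Itgb3* without library 1. With only the 2 classes fitted *Lamb2*, *Lama4*, *Itga2*, *Itga10* and the partners *Col18a1*, *Fras1* and *Plec* were not called. DESeq2 did not call *Lama4*. Of 36 partners, 4 were higher in endothelial cells (1 without library 1) and 11 lower, with *Col15a1* at 3.82, *Tln2* at 2.48 and *Hspg2* at 1.73 at the top and the collagen IV chains *Col4a6* at -5.59 and *Col4a5* at -3.91 and the membrane protein *Fras1* at -3.26 at the bottom. *Fras1* was at 45.5 CPM in mural library 1 and had no UMI in mural library 3, and it lost its call without library 1, as did *Col15a1* and *Hspg2*.

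Against stromal cells, 10 of 34 members were higher in endothelial cells by edgeR (15.4% of all genes) and 9 lower (19.5%), with a median log2 fold change of -0.14 over the members and -0.09 over all genes. The higher laminins were *Lama3* at 4.86 (adjusted p 2.04e-08) and *Lama5* at 4.03 (adjusted p 1.29e-07). Higher receptors of laminin were *Itga6* at 5.49 (adjusted p 1.85e-09), *Itga3* at 4.31 (adjusted p 4.05e-07) and *Itgb4* at 4.26 (adjusted p 1.86e-08). *Itgb3* at 3.07, *Itga9* at 2.34, *Itga5* at 1.32 and *Itga1* at 0.93 were higher as well, and *Itga1* lost its call without library 1. Of the calls under 10 CPM, *Itgal* was lost whichever library was left out, *Itga10* without library 1 or 2 and *Itgb2* without library 1. Lower were *Lama2* at -8.60, *Lamc3* at -6.25, *Itga11* at -4.39, *Itgb8* at -2.42 and *Itgb5* at -1.74. *Itga8*, with no endothelial UMI, was at least 135-fold lower, and *Itga4*, with 1, had a pooled ratio of 70.4-fold with a 95% counting interval of 12.6 to 2786 in favour of stromal cells. *Lama4* at 0.06, *Lamb2* at 0.60, *Lamb1* at -1.13 and *Lamc1* at -0.35 were not called. With the library as a block *Lamb2* (0.58, edgeR adjusted p 0.0479) was called higher and *Lamb1* (-1.27, edgeR adjusted p 0.0272) lower, as both were with only the 2 classes fitted, and *Lamb2* also without library 3. Of the partners 14 were higher, led by *Bcam* at 5.26, *Lims2*, an adaptor of integrin-linked kinase, at 2.88 and *Col4a3* at 2.36, and 6 were lower, among them *Col4a6* at -7.01, *Col4a5* at -4.86 and *Frem1*, which had 1 endothelial UMI and a pooled ratio of 430.1-fold with a 95% counting interval of 77.1 to 16993 in favour of stromal cells. Without library 1 the partners called higher fell from 14 to 7, and *Col4a3* was among those lost.

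Mural cells had 9 of 34 members higher than stromal cells by edgeR (9.73% of all genes) and 8 lower (12.7%), with a median log2 fold change of -1.43 over the members and -0.22 over all genes. *Itga7* was the most different, at 165, 79.3 and 123 in mural cells against 5 UMIs in all stromal cells (log2 fold change 10.16, SE 0.59, edgeR adjusted p 2.69e-09). *Lama5* at 4.57 (adjusted p 5e-07), *Lamb2* at 1.63 (adjusted p 0.000149) and *Itgb1* at 1.76 (adjusted p 1.78e-05) were higher, with *Itga3* at 2.53, *Itga4* at 2.29, *Itga1* at 1.79, *Itga8* at 1.65 and *Itga10* at 1.55. Mural cells also carried 601, 2911 and 192 CPM of the stromal check genes in libraries 1, 2 and 3, of which library 2 entered no test. The satellite check list was at 381 to 426 CPM in mural cells, against 54.5 to 78.0 in stromal cells. The part of these transcripts in the mural levels was not tested. Lower in mural cells were *Lamc3* at -3.40, *Itga5* at -2.44, *Lama2* at -2.35 (adjusted p 0.0431), *Lamb1* at -2.29 and *Itgb8* at -1.87. *Itga11*, with no mural UMI, was at least 4.92-fold lower, and *Itga2b*, with 1, had a pooled ratio of 9.22-fold with a 95% counting interval of 1.65 to 365 in favour of stromal cells. *Lama4* at -1.38 (adjusted p 0.0512) and *Lamc1* at 0.18 were not called. Calls fell from 17 to 10 without library 1, to 14 without library 2 and to 10 without library 3, and *Itga10* and *Itga2b* were lost whichever library was left out. *Itga3* and *Lama2* were lost without library 2 or 3, *Itgb8* without library 1 or 3, *Itga5*, *Itga11* and *Lamc3* without library 1, and *Itga8* and *Lamb1* without library 3. With only the 2 classes fitted *Lama2*, *Lamb1*, *Itga2* and *Itga2b* were not called, nor was *Itga10* with no low count filter or no doublet removal. With the library as a block *Itga3* and *Itga2b* were not called, whereas *Lama4* (-1.71, edgeR adjusted p 0.00395) and *Itga9* (-1.53, edgeR adjusted p 0.0327) were called lower. *Lama4* was also called with no low count filter, no doublet removal, stricter gates or library 2 left out. The partners had 16 higher and 5 lower, and 7 of the 11 integrin activators and adaptors were higher. *Bcam* at 6.13, *Col4a3* at 3.09 and *Vcl* at 2.69 led. *Col4a3* was at 73.9 CPM in mural library 1 and 2.79 in mural library 3, against 4.95 and 6.50 in stromal cells, and it lost its call without library 1. *Frem1*, with no mural UMI, was at least 25.2-fold lower, *Col15a1* was at -6.13, and *Egfl6*, with 1 mural UMI, had a pooled ratio of 12.2-fold with a 95% counting interval of 2.18 to 483 in favour of stromal cells and lost its call without library 1 or 3. Endothelial, mural and satellite cells were each set against the same stromal sums.

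The study itself split cells by *Lrig1*, so the members were compared between 21393 cells with at least 1 *Lrig1* UMI (48.0%) and 23149 without. By edgeR without a block no member of 35 passed, and no gene did (0.0% of all genes higher and 0.0% lower), while 14 members and 2742 genes had an unadjusted p under 0.05. DESeq2 called 1 member higher (1.41% of all genes with an adjusted p) and 6 lower (3.56%). The median log2 fold change was -0.40 over the members and 0.01 over all genes. With the library as a block, 8 members were higher in *Lrig1*+ cells, against 10.8% of all genes, and 15 lower, against 13.6%.

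Among the members higher in that fit, *Itgb4* was at 224, 254 and 279 in *Lrig1*+ and 150.0, 204 and 231 in *Lrig1*- cells (log2 fold change 0.42, edgeR adjusted p 0.0142). *Itga6* at 0.28, *Itga3* at 0.32, *Lama5* at 0.33 and *Lama3* at 0.22 were higher as well, whereas *Lamb3* at 0.22 (edgeR adjusted p 0.0734), *Itgb6* at 0.30 (edgeR adjusted p 0.0757) and *Itga2* at -0.03 (edgeR adjusted p 0.702) were not called. On the lower side *Lama2* was at 178, 82.3 and 88.5 against 413, 225 and 186 (log2 fold change -1.21, edgeR adjusted p 0.00381), with *Lama4* at -1.52, *Lamb1* at -1.35, *Lamc3* at -1.25 and *Itga8* at -1.50. Class makeup differed between the groups, since *Lrig1* UMIs were found in more basal than stromal cells, as did depth, with medians of 14498.5 to 17731 UMIs in *Lrig1*+ and 6362 to 9644 in *Lrig1*- cells. Thinning cells to 5000 UMIs before the split moved some *Lrig1*+ cells to the *Lrig1*- group. The block fit then called 17 of 35 members, 7 higher (6.64% of all genes) and 10 lower (9.73%).

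Inside the basal class, 11335 cells with and 7661 cells without *Lrig1* were compared. No member of 29 passed, none had an unadjusted p under 0.05, and no gene was called (0.0% higher and 0.0% lower), although 409 genes had an unadjusted p under 0.05 and DESeq2 called 5 genes higher (0.0313%), 15 lower (0.094%) and no member. With the block, no member was higher, against 1.47% of all genes, and 3 were lower, against 1.94%. These were *Itga2*, at 28.7, 24.1 and 17.4 in *Lrig1*+ and 43, 30.9 and 19.4 in *Lrig1*- basal cells (log2 fold change -0.36, edgeR adjusted p 0.0472), *Itgb8*, at 29.4, 14.3 and 14.2 against 35.3, 18.6 and 17.1 (log2 fold change -0.29, edgeR adjusted p 0.0238), and *Lama2* at under 10 CPM. *Itga2* and *Itgb8* were lower in *Lrig1*+ cells in all 3 libraries, while the ranges of the groups overlapped. With cells thinned to 5000 UMIs *Itgb8* turned, to a log2 fold change of 0.0036 without the block and 0.036 with it. Median depths were 14071 to 19190 UMIs against 7727.5 to 16167, and with thinned cells the block fit called no member, against 3.46% of all genes higher and 3.87% lower. The split was made again after thinning, on cells with at least 5000 UMIs. It gave 1098, 1012 and 3986 *Lrig1*+ and 2379, 1785 and 7346 *Lrig1*- basal cells. The thinned *Lrig1*- group thus included cells with *Lrig1* UMIs at full depth, and its contrast is not that of the full split. By edgeR no partner was called in either *Lrig1* comparison without the block. With it, 13 partners were higher and 13 lower over all cells, and 2 and 3 in basal cells. The block with thinned cells called 11 higher and 9 lower over all cells, and 4 and 0 in basal cells. DESeq2 called 3 higher and 6 lower over all cells and none in basal cells.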

How the data were processed

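Cells were sorted for tdTomato, captured in 3′ droplet libraries and aligned by the authors with Cell Ranger 8.0.1 to GRCm39, per the submitters' processing notes. The authors deposited, for each called barcode, the UMI counts of each gene as whole numbers without normalization, before limits on cells or doublet removal. A barcode was kept if it had from 500 to 8000 genes, from 1000 to 40000 UMIs and a mitochondrial share of 8% or less, and doublets scored on 30 principal components of 2000 variable genes were removed at 0.4% per 1000 barcodes (4851 in all), which left 44542 cells. No columns were left unmatched to a sample.

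Classes were set by UMI gates on 35 genes. A list passed with at least 3 UMIs from at least 2 of its genes. Nonepithelial classes had 1 list passed and at most 1 UMI of *Epcam* and *Cdh1*, and epithelial cells at least 2 such UMIs and no list passed. Basal cells had at least 1 *Trp63* UMI, 10 UMIs of *Krt5*, *Krt14* and *Krt15* and under 10 of *Krt4* and *Krt13*. Suprabasal cells had at least 30 UMIs of *Krt4* and *Krt13*, a UMI of each, and more of these than of the basal keratins.

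Counts were summed per library and class (at least 20 cells), and the 7 classes were fitted together by the quasi-likelihood method of edgeR 4.0.16 (R 4.3.3), with TMM scaling, the filterByExpr filter and two-sided tests. P-values were adjusted by the Benjamini-Hochberg method across every tested gene, and 0.05 was the threshold. Gate genes and *Lrig1* were not tested. The subsets of basal cells and the *Lrig1* groups had fits of their own. The script was tested on simulated data. Python 3.11.15 with numpy 2.4.6, pandas 2.3.3, scipy 1.17.1 and matplotlib 3.10.9 made the other values. A group with no UMI was set to 3 counts over the group, and a group with 1 to 3 UMIs is given as a pooled ratio with its 95% counting interval.

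The members, gene lists and comparisons were chosen with earlier results of these data known. The symbol rule finds 37 genes, of which 1 member is not reported here, with the results that need it. The other members are accounted for; levels are given for members with a mean of at least 10 CPM in a class, tests for called members with at least 10 CPM in the higher group, and partners by counts with the 3 largest and 3 smallest called changes. The libraries are pools that were not said to come from separate days, so p-values measure the spread between these 3 pools. Unless only the 2 classes compared were fitted, a comparison of classes used spread estimated over all the classes fitted together. Mural sums in tests came from libraries 1 and 3 alone. The sums within a library share a pool of larynges, and deviations of same-library sums correlated at 0.0475 to 0.776 over 25 pairs of groups, so the library as a block pairs the sums by design. The range was 0.600 to 0.720 for the *Lrig1* groups of all cells and 0.232 to 0.776 for those of basal cells. It was 0.292 to 0.642 for *Tmprss11a*+ and *Nkx2-1*+ basal cells. Alternatives were that block, DESeq2 1.42.0, RLE size factors, no low count filter, no doublet removal, stricter gates, only the 2 classes compared, cells thinned to 5000 UMIs, and leaving out each library. For fits with a library left out the share of all genes called is not given. Those counts therefore do not set the members apart from other genes. DESeq2 gave some genes no adjusted p, and these were left out of its counts. After seeing the data, the block together with thinning and *Tmprss11a*+ basal sums in place of all basal sums were added.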

Additional observations from a re-analysis of the deposited data

How the results depend on the processing

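Of 1348 values recomputed under the alternatives, 1235 kept their direction and their side of the threshold. In *Tmprss11a*+ against *Nkx2-1*+ basal cells, 8 members were called, 17 with the library as a replicate block and 1 to 8 with a library left out. In mural against stromal cells the 17 calls became 10 to 14 with a library left out, where the lone mural sum of 2 of these fits was assumed to vary like the other groups. In *Lrig1*+ against *Lrig1*- cells the 0 calls became 7 with DESeq2, 23 with the block and 17 with the block and cells thinned to 5000 UMIs, and inside the basal class 3 with the block. The block changed no other count of members called by over 1.5 times. With cells thinned to 5000 UMIs, *Itga6* with *Itgb4* was left in 57.7% of basal and 41.7% of suprabasal cells.

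The values that changed sign belonged to members that were not called without the block, of which *Itgb8* was called with it in basal cells. For basal against suprabasal cells, with a library left out, *Itgb6* ranged from -0.24 to 0.27, *Itgav* from -0.012 to 0.096 and *Lama3* from -0.11 to 0.12. *Itgb6* became -0.0544 with no doublet removal and -0.013 with only the 2 classes, and *Lama3* -0.0214 with no doublet removal. *Itgb8* between *Lrig1*+ and *Lrig1*- basal cells became 0.00355 with thinned cells and 0.0358 with the block and thinned cells. The cause of these changes was not tested. With 3 pools, 121 mural cells and 286 suprabasal cells, low members of these classes rest on few UMIs, and 41.8% of cells were in no class. The 29 and 40 endothelial cells of libraries 2 and 3 gave small sums as well.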
